A study of Mus musculus with 2 samples.

Results

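Cycling macrophages of AT3 breast tumors were the cells that carried the complement C1q transcripts of tissue macrophages together with transcripts of dividing cells. A cell was taken when it held 500 to 7500 detected genes and at most 15% mitochondrial transcripts, at least 30 unique molecular identifiers (UMIs, single counted transcript molecules) of *C1qa*, *C1qb* and *C1qc* together, at most 1 UMI of *Cd3d*, *Cd3e* and *Cd3g* together, and at least 3 UMIs of *Mki67* and *Top2a* together. This gave 103 cells, 56 in the *Pgd* fl/fl library and 47 in the *Pgd* fl/fl LysMCre library, out of 1085 C1q macrophages, 6363 cells that passed the filters and 6742 barcodes in all. The 982 C1q macrophages with at most 2 UMIs of *Mki67* and *Top2a* are called the other macrophages. The rule used these 8 genes, so their values are a description of how the cells were picked.

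The study asked how loss of 6-phosphogluconate dehydrogenase (6PGD, gene *Pgd*), an enzyme of the oxidative pentose phosphate pathway, in myeloid cells changes the leukocytes of a tumor. Both groups were female mice of 6 to 12 weeks with loxP-flanked *Pgd* alleles, which the control mice carry as well, and the library labelled 6PGDKO came from mice with the Cre recombinase gene placed in the *Lyz2* (LysM) locus, while the library labelled WT came from mice without Cre. Each mouse received 500000 cells of AT3, a mammary cancer line from a mouse transgenic for the polyoma middle T antigen, under the skin at the mammary fat pad. Tumors of 10 mice per genotype were pooled on day 30, and the deposited counts of each genotype are called its library. Each genotype was thus measured once, without replicates, so a difference between the libraries cannot be told apart from a difference between the 2 preparations, and no test was made. Intervals given below are exact 95% intervals that cover counting error only and treat UMIs as independent molecules.

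Tumor macrophages come from blood monocytes and from macrophages already in the tissue, and both can divide in place under colony stimulating factors. In the cell cycle, D-type cyclins with CDK4 and CDK6 and then cyclin E with CDK2 release E2F factors from the retinoblastoma family, which opens the genes of DNA synthesis. Later the MuvB complex with MYBL2 and FOXM1 turns on the genes of G2 and mitosis. *Mki67* codes for the Ki-67 coat protein of mitotic chromosomes and *Top2a* for topoisomerase II alpha, which untangles DNA, and both are transcribed mainly from S phase to mitosis.

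The promoters of the genes that mark these cells are shown from RefSeq (build GRCm38.p6) because they hold the elements through which cycle genes are known to be switched. Each run covers 250 bases before to 50 bases after the transcription start, 5′ to 3′ along the gene. Capitals mark matches, on either strand, to the cell cycle homology region (CHR, the letters TTTGAA or TTCGAA), the CCAAT box (the letters CCAAT) and E2F cores (the letters TTCCCGC or TTGGCGC). The genes shown are a gene of the rule, both markers that the rule did not use, cyclin B2 as a mitotic cyclin, and the leading gene outside the lists.
Top2a promoter, chr11:99024140-99024439, minus strand: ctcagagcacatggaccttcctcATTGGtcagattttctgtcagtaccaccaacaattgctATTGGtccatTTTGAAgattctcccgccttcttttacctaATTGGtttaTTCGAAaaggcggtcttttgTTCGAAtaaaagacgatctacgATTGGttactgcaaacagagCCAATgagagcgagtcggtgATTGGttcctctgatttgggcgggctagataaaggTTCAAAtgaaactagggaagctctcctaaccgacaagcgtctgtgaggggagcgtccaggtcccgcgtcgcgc
Birc5 promoter, chr11:117848987-117849286, plus strand: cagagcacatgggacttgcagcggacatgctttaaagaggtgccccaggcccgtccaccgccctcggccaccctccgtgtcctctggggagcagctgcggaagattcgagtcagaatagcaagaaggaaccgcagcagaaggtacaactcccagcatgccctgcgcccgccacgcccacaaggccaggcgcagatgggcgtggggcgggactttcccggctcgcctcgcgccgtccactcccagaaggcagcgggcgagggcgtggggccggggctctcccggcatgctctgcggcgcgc
Cenpf promoter, chr1:189688037-189688336, minus strand: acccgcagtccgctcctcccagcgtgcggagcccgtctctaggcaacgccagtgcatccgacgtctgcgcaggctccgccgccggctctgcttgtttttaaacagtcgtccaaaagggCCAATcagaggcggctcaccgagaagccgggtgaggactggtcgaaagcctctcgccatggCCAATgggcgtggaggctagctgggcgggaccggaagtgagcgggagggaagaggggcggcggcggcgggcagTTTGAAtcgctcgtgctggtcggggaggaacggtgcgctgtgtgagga
Ccnb2 promoter, chr9:70421505-70421804, minus strand: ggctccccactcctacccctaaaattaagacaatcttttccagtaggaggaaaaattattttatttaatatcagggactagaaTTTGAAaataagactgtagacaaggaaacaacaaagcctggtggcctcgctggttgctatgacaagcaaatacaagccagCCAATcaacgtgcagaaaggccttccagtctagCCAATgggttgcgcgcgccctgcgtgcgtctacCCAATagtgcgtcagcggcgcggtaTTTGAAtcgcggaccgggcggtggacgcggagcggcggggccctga
Pclaf promoter, chr9:65890073-65890372, plus strand: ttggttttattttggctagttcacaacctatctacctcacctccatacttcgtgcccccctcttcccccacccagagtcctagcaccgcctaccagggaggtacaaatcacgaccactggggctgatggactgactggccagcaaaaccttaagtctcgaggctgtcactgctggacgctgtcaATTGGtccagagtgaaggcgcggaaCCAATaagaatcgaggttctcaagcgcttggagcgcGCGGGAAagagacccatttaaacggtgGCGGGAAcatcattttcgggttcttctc

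The *Top2a* window held 4 CHR matches and 6 CCAAT boxes, the *Ccnb2* window 2 and 3, and the *Cenpf* window 1 and 2. The *Pclaf* window held no CHR match but 2 CCAAT boxes and 2 E2F cores, and the *Birc5* window held none of these letters. Promoters were found for 45 of the 52 listed G2 and M phase genes, and 75.6% of them held a CHR match, compared with 21.7% of 27025 genes with a promoter and 16.7% of the measured genes. A CHR together with a CCAAT box stood in 60.0% of the G2 and M promoters and in 8.61% of all. For S phase genes 31 of 43 matched, which is fewer than 80%, so no share is given. These matches describe letters and do not show binding.

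All members held C1q transcripts by the rule, and the level was close to that of other macrophages. *C1qa* reached 5573 counts per 1000000 UMIs of the cell group (CPM) in cycling and 5838 CPM in other macrophages of the *Pgd* fl/fl library, and 4227 and 4992 CPM in the *Pgd* fl/fl LysMCre library. *Csf1r*, the receptor for macrophage colony stimulating factor, was detected in 55 of 56 and 47 of 47 cycling cells at 475 and 445 CPM, and *Adgre1*, which codes for F4/80, in 85.7% and 78.7% of them. The markers *Birc5* (survivin, a subunit of the chromosomal passenger complex) and *Cenpf* (a kinetochore protein), which the rule did not use, were at 210 and 91.1 CPM in the *Pgd* fl/fl cycling cells against 9.45 and 2.19 CPM in the other macrophages. In the LysMCre library the same levels were 216 and 99.5 CPM against 6.82 and 1.05 CPM. *Birc5* was detected in 64.3% and 63.8% of cycling and in 4.45% and 3.44% of other macrophages, and in cells thinned to 5000 UMIs in 50.9% and 52.2% against 2.86% and 2.34%. In neutrophils, which do not divide, it was detected in 0 of 33 cells, which allows a share of cells with a UMI of up to 9.09%, and in 1 of 46, but with medians of 2316 and 2177 UMIs per neutrophil these cells are too shallow to be compared with macrophages. Both markers outside the rule were thus higher in the set as a whole, as the label of cycling macrophage implies.

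Transcripts of most other cell types were few. The T cell list summed to 46.1 and 41.8 CPM in cycling against 73.7 and 67.4 CPM in other macrophages, and the NK cell list to 34.3 and 62.2 CPM against 51.6 and 67.2 CPM. The dendritic cell list stood at 89.0 and 150 CPM against 130 and 96.8 CPM, so that it was higher in the cycling cells of the LysMCre library. The mast cell list was at 7.50 and 14.7 CPM against 16.5 and 32.2 CPM and the endothelial list at 19.3 and 11.3 CPM against 19.4 and 15.2 CPM, and 8 of the 10 fibroblast and 5 of the 6 erythroid genes had no UMI. The B cell list stood at 272 and 96.1 CPM, mostly *Ighm* (199 and 80.3 CPM), against 844 and 119 CPM in the other macrophages. Only 8 cycling macrophages held the 1 Cd3 UMI that the rule allowed. The multiplexing oligo of its own library led in all 103 cells. It also led in all 3565 and 2798 kept cells, so this does not show purity of the members. A second oligo exceeded 10% of oligo counts in 4 of 56 and 1 of 47, beside 52.3% and 27.9% of kept cells. Median oligo counts were 2970.5 and 2744 in cycling macrophages and 1201 and 1671.5 in kept cells, so these shares were not taken at like oligo yield. The epithelial list was higher in cycling than in other macrophages of both libraries (111.5 and 213 CPM against 66.3 and 123 CPM). Its members *Epcam* and *Cdh1* reached 62.2 and 38.6 CPM in the *Pgd* fl/fl and 133 and 63.3 CPM in the LysMCre cycling cells, while 6 of the 12 epithelial genes had no UMI. *Epcam* was held by 10 and 9 cells, and *Cd207*, the Langerhans cell lectin, was detected in 33.9% and 17.0% of cycling against 15.7% and 13.1% of other macrophages. In cells thinned to 5000 UMIs the *Cd207* shares were 18.9% and 10.9% against 11.0% and 9.35%, so its detection was higher in the cycling cells of both libraries. Its level was 123 and 44.1 CPM against 53.3 and 57.9 CPM, so the order of the level differed between the libraries. The part of such cells in the results was not tested. The neutrophil list (3579 and 360 CPM against 332 and 280 CPM) was carried in the *Pgd* fl/fl library by *Slpi*, with 2734 of its 3104 UMIs in 1 cell.

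The cycling macrophages made up 9.77% (7.47 to 12.5%) of C1q macrophages in the *Pgd* fl/fl and 9.18% (6.82 to 12.02%) in the LysMCre library, and the intervals overlapped over most of their range. Cycling cells were deeper than the rest, with medians of 15465 and 17491 UMIs against 11237 and 12181, and held a median of 3849 and 3932 genes against 2800 and 2961. A deeper cell reaches 3 UMIs more easily, so each cell was also thinned to 5000 UMIs, with 88.7% and 92.6% of C1q macrophages deep enough. At that depth 16.5% (13.4 to 20.1%) and 17.3% (14.0 to 21.0%) held at least 1 UMI of *Mki67* or *Top2a*, and 8.07% and 6.33% held at least 2. The order of the genotypes thus differed between these cutoffs. Among T cells of the same tumors, the share with at least 3 such UMIs was 7.50% (6.32 to 8.81%) in the *Pgd* fl/fl and 12.1% (10.3 to 14.0%) in the LysMCre library, and after thinning 23.3% and 31.4% held at least 1. Only 961 of 1801 and 745 of 1234 T cells were deep enough to thin. Cycling T cells were deeper, with medians of 11782 and 13195 UMIs against 5180 and 6069 in all T cells. The thinned shares of T cells and macrophages are thus not comparable.

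The depth of the cycle signature varied widely among the 103 cells. At the edge of the rule 34 cells held 3 or 4 UMIs of *Mki67* and *Top2a*, 29 held 5 to 9 and 40 held 10 or more. The 41 macrophages just outside, with 2 UMIs, are 15 in the *Pgd* fl/fl and 26 in the LysMCre library. *Birc5* stood at 38.3 CPM just outside, 45.3 CPM at 3 or 4, 169 CPM at 5 to 9 and 333 CPM at 10 or more UMIs in the *Pgd* fl/fl library. The LysMCre library gave 26.1, 71.7, 117 and 372 CPM in the same steps. The G2 and M phase list without the 2 rule genes rose along the steps from 2178 to 8311 CPM and from 1610 to 8214 CPM. The S phase list went from 1434 to 2807 CPM in the *Pgd* fl/fl library with a lower value of 959 CPM at 3 or 4 UMIs, and from 698 to 2859 CPM in the LysMCre library. Cells just inside the limit were thus nearer to those just outside it than to the cells with 10 or more UMIs.

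**Figure D1:**
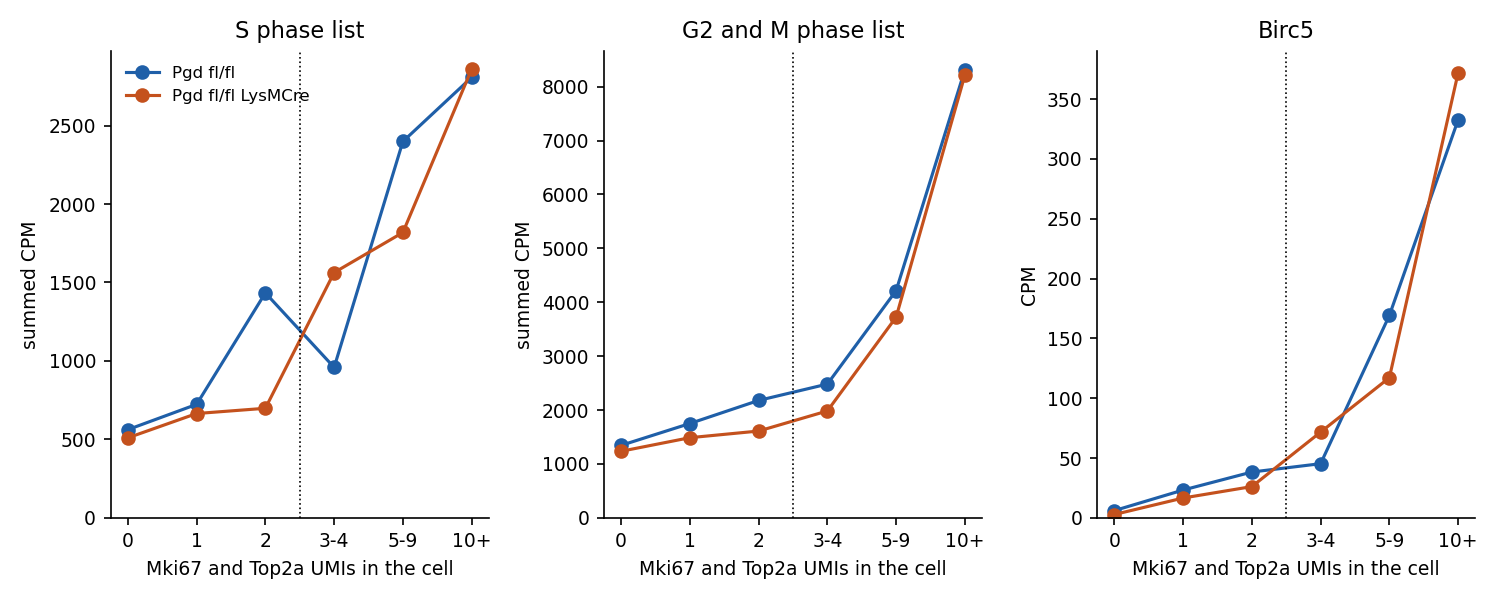
Summed CPM of the S phase list, of the G2 and M phase list (both without *Mki67* and *Top2a*) and CPM of *Birc5* in C1q macrophages grouped by their *Mki67* and *Top2a* UMIs (horizontal axis), 1 line per library. The dotted line marks the limit of the rule, and the G2 and M level rises to 8311 and 8214 CPM in cells with 10 or more UMIs.

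Single cells spread widely in the levels of both lists. In the *Pgd* fl/fl library the S phase list ran from 1.03 to 113 UMIs per 10000 UMIs of the cell (median 19.97) and the G2 and M list from 7.09 to 144 (median 53.04). In the LysMCre library they ran from 2.13 to 63.2 (median 17.0) and from 8.997 to 141 (median 43.8). The other macrophages had medians of 4.61 and 4.57 for the S phase list and 12.9 and 11.6 for the G2 and M list. Set against the 95th percentile of the other macrophages of the same library, 45 cycling cells were above it for both lists, 14 for S phase only, 20 for G2 and M only and 24 for neither. The last 24 were 12 in each library, with a median of 3 UMIs of the rule genes, the least the rule allowed. Across the cells of a library the S and the G2 and M levels had Spearman correlations of 0.34 (n = 56) and 0.40 (n = 47), a description of cells that share 1 library, and neither list followed depth closely (between -0.01 and 0.19).

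**Figure D2:**
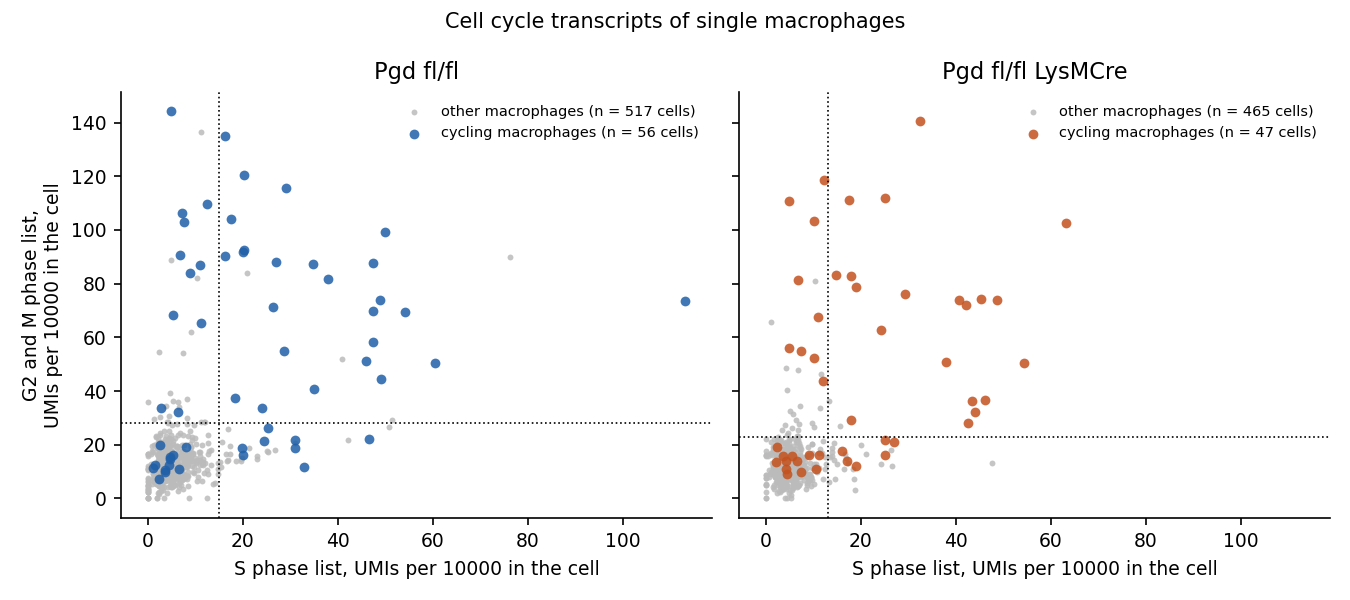
Each point is 1 macrophage, with the UMIs per 10000 of the S phase list on the horizontal and of the G2 and M phase list on the vertical axis, cycling cells in colour and other macrophages in grey. Dotted lines are the 95th percentiles of the other macrophages, and 45 of the 103 cycling cells lie above both while 24 lie below both.

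Compared with the other macrophages of their own library, the cycling cells had 295 of 8827 measured genes at least 2-fold higher in both libraries (3.34%) and 66 at least 2-fold lower in both (0.748%). A gene was measured when it held at least 30 UMIs over both cell groups in each library. This contrast was set by the rule through *Mki67* and *Top2a*, so the counts are a description with no test. A gene near 0 in the other macrophages reached the minimum through the cycling cells alone, so that the counts and medians over measured cycle genes are in part set by this filter. It was passed by 33 of 43 listed S phase genes, 39 of 52 G2 and M phase genes, 18 of 26 spindle and cytokinesis genes and 15 of 23 kinetochore and checkpoint genes. The median log2 ratio over all genes other than the rule genes was 0.08 and 0.06, and 38.4% of them were positive and 25.6% negative in both libraries.

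Genes of DNA synthesis were higher as a block. Of 33 measured S phase genes 27 were past 2-fold in both libraries and none was lower, with median log2 ratios of 1.96 and 2.17. *Pcna*, the sliding clamp of the polymerases, went from 113 to 301 CPM and from 109 to 268 CPM (log2 ratios 1.41 and 1.30). *Atad2* (1.65 and 1.88) and the histone chaperone *Nasp* (1.57 and 1.50) moved alike. Of 12 genes for origin licensing and the replicative helicase 11 were past 2-fold, led in counts by *Mcm3* (2.10 and 2.25), *Mcm6* (2.24 and 2.13) and *Mcm7* (2.40 and 3.17). Of 22 polymerase and fork genes 19 were, among them the maintenance methyltransferase *Dnmt1* (2.14 and 1.86), while the clamp loader subunit *Rfc2* (0.59 and 0.92) was not. Deoxynucleotide supply had 8 of 10 past 2-fold, with *Rrm1*, the large subunit of ribonucleotide reductase, at 3.43 (2.95 to 3.93) and 3.29 (2.79 to 3.81). *Samhd1*, which breaks deoxynucleotides down, had log2 ratios of -0.35 and -0.53, the one member of that list that was negative in both.

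Histones followed. Of 21 measured replication histones and carriers 14 were past 2-fold in both libraries. *Hist1h2ap* went from 70.2 to 1496 CPM and from 62.3 to 2072 CPM, *Hist1h2ae* from 23.3 to 406 CPM and from 16.4 to 737 CPM, and the variant *H2afz* from 964 to 2303 CPM and from 876 to 2079 CPM. Replication-dependent histone messages carry no long poly(A) tail and have near-identical copies, so their counts in a poly(A)-primed library are uncertain in level and in the split between copies.

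The largest list medians were those of mitotic genes, but the filter sets these medians in part. Their order among the lists is therefore a description. Of 39 measured G2 and M phase genes 36 were past 2-fold in both libraries (medians 3.25 and 3.33), and the 18 spindle and cytokinesis genes that passed the filter were as well (medians 4.39 and 4.38). The tubulins *Tubb5* (172 to 856 CPM and 217 to 867 CPM) and *Tuba1b* (134 to 620 CPM and 120 to 488 CPM) and the tubulin regulator *Stmn1* (42.7 to 564 CPM and 38.0 to 471 CPM) gave the highest levels of that list. *Hmgb2*, a chromatin protein, was the highest G2 and M gene and went from 619 to 1703 CPM and from 517 to 1488 CPM. *Jpt1* (0.96 and 0.56) stayed under 2-fold. Of 15 kinetochore and checkpoint genes 14 were past 2-fold, with the centromeric histone *Cenpa* at 1.08 and 1.16 and the mitotic motor *Cenpe* at 4.75 and 4.07. Of 11 condensin and cohesin genes 7 were, and the condensin subunits *Smc2* (3.15 and 3.60) and *Smc4* (2.35 and 2.27) were well above the cohesin subunit *Smc1a* (1.12 and 1.00). Of 8 genes of the anaphase promoting complex and mitotic exit 5 were, including the E2 enzymes *Ube2c* (4.17 and 4.30) and *Ube2s* (1.46 and 1.61), while the separase inhibitor *Pttg1* had -0.21 and 0.0037.

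**Figure D3:**
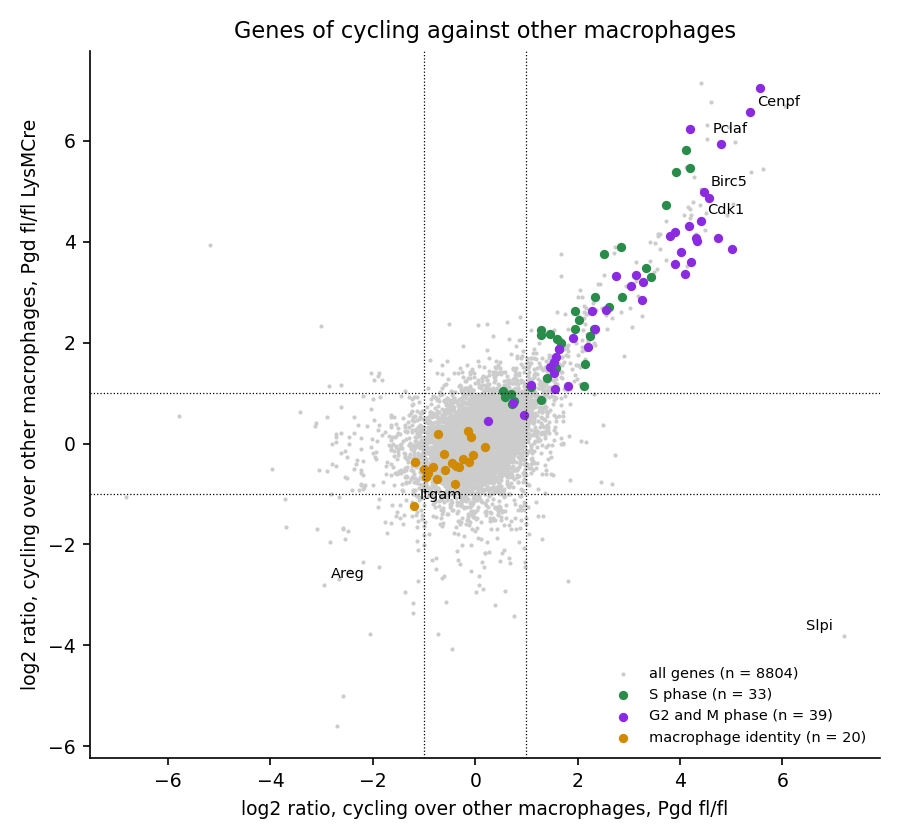
Each point is 1 gene, with the log2 ratio of cycling over other macrophages in the *Pgd* fl/fl library on the horizontal and in the *Pgd* fl/fl LysMCre library on the vertical axis, for genes with UMIs in every group. S phase and G2 and M phase genes lie at the upper right with list medians of 1.96 and 2.17 and of 3.25 and 3.33, macrophage identity genes lie mostly below 0 (medians -0.52 and -0.42), and *Slpi* stands apart at 7.20 and -3.82.

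The cyclins and kinases were split by the step they serve. Of 17 measured 10 were past 2-fold in both libraries, against 3.34% of all measured genes. *Ccna2* (5.07 and 5.98), *Ccnb1* (4.28 and 5.28), *Ccnb2* (3.25 and 2.84), *Cdk1* (4.42 and 4.42), *Plk1* (4.38 and 4.74) and *Aurkb* (3.80 and 4.12), which act from S phase to mitosis, were higher by over 2-fold. These rested on few UMIs outside the cycling cells, as *Plk1* had 23 and 33 UMIs in cycling and 7 and 8 UMIs in other macrophages, and it passed the filter through the former. Among the rest *Cks1b* (3.04 and 3.12), *Cks2* (1.54 and 1.40), *Ccnf* (1.81 and 1.83) and the phosphatase *Cdc25a* (1.27 and 1.11) were also past 2-fold. The D-type cyclins, which answer growth factor signals in G1, stayed under 2-fold, with *Ccnd1* at 0.13 and 0.23, *Ccnd2* at 0.45 and 0.24 and *Ccnd3* at 0.02 and 0.47. *Cdk4* (0.95 and 0.50) was higher with intervals above 0 in both libraries but under 2-fold. *Cdk6* had 0.35 (-0.10 to 0.78) in the *Pgd* fl/fl and -1.10 (-1.88 to -0.41) in the LysMCre library.

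Inhibitors and E2F regulators were less uniform. *Cdkn2c* (3.06 and 2.32) and *Cdkn2d* (1.22 and 1.11), which code for the CDK4 and CDK6 inhibitors p18 and p19, and *Rbl1*, which codes for the pocket protein p107 (2.67 and 2.49), were the 3 of 9 past 2-fold. *Cdkn1a* (p21) was abundant in both cell groups (502 and 523 CPM in cycling against 586 and 553 CPM in other macrophages), and *Cdkn1b* (-0.18 and -0.41), *Rb1* (0.06 and 0.22) and *Rbl2* (-0.08 and 0.59) were under 2-fold. The antiproliferative genes *Btg1* and *Btg2* had log2 ratios of -0.59 and -0.67 in the *Pgd* fl/fl library and 0.09 and 0.07 in the LysMCre library. Among E2F, MYB and FOXM1 regulators all 8 measured were positive in both libraries and *E2f1* (1.33 and 1.46), its partner *Tfdp1* (1.42 and 1.29) and the MuvB subunit *Lin9* (1.62 and 1.50) passed 2-fold, while *E2f4* (0.43 and 0.18) did not.

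Genes in no list were also named by the smaller of their 2 changes. *Pclaf*, a PCNA-associated factor, led with 9.95 to 228 CPM and 3.85 to 252 CPM (log2 ratios 4.52 and 6.03). It was followed by the histone chaperone *Dnajc9* (2.37 and 2.66), the Polycomb methyltransferase *Ezh2* (2.21 and 2.07), *H2afv* (1.90 and 2.05), *Lsm2* (1.81 and 1.95), *Topbp1* (1.79 and 1.89), *Ccdc34* (1.76 and 1.94), *Nucks1* (1.69 and 1.71), *Slfn9* (2.15 and 1.67), *Rbbp7* (1.73 and 1.62), *Nsd2* (2.12 and 1.61) and the DNA sensor *Cgas* (1.63 and 1.59). On the other side stood *Areg* (amphiregulin, -2.95 and -2.80), the ubiquitin ligase *Fbxo32* (-2.67 and -2.68), the small heat shock gene *Hspb1* (-2.58 and -5.01), *Ly6d*, *Ecm1*, *Mgp*, *Prelid2*, *Fbxl20*, *Ly96*, *Ifitm1* and *Pdcd4*. Each of these 11 had at most 14 UMIs in the cycling cells of the *Pgd* fl/fl library, and *Mgp* had none in those of the LysMCre library. Without cells that held lymphocyte UMIs *Mgp*, *Prelid2*, *Ifitm1* and *Pdcd4* were positive in the *Pgd* fl/fl library. *Areg* was held by few macrophages of either kind (7.14% and 10.6% of cycling, 6.38% and 9.25% of other), so its difference lay in a small number of other macrophages with many UMIs.

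Promoters of the genes at least 2-fold higher in both libraries were found for 247 of 295. They held a CHR match in 38.1%, a CCAAT box in 64.4% and an E2F core in 38.5%, compared with 16.7%, 42.7% and 14.9% of the promoters of measured genes. Since the higher genes were chosen in this contrast, the shares are given with no test.

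The macrophage programs were carried at close to the same level or somewhat lower. All 20 macrophage identity genes were measured and none was past 2-fold higher in both libraries, while 16 were negative in both, against 25.6% of all genes (medians -0.52 and -0.42, against 0.08 and 0.06). *Itgam*, which codes for CD11b, was the one gene past 2-fold lower in both (-1.20 and -1.23). *Apoe* had the highest counts and went from 20060 to 9967 CPM and from 17411 to 12207 CPM, *Ctss* had -0.46 and -0.39, and *Csf1r* stayed near its level in other macrophages (-0.04 and -0.23). The transcription factor gene *Maf* had -1.18 (-1.82 to -0.59) and -0.37 (-0.79 to 0.03). None of 16 self-renewal and lineage regulators and none of 15 growth factor receptors and ligands was past 2-fold in both libraries. Of the latter *Csf2ra*, a receptor subunit for GM-CSF, was at 376 and 363 CPM in cycling against 414 and 361 CPM in other macrophages, and *Igf1* was at 25.7 and 59.9 CPM against 59.9 and 77.5 CPM.

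Subset programs were lower in part. Of 11 measured genes of resident-like and alternatively activated macrophages 3 were past 2-fold lower in both libraries, against 0.748% of all genes, and the 11 were negative in both, against 25.6%, with *Ccl8* at -0.00087 in the LysMCre library. The 3 were *Gas6* (1 UMI in the *Pgd* fl/fl cycling cells), *F13a1* (0 UMIs) and *Retnla* (1 UMI), and the abundant members *Vcam1* (-0.45 and -0.24) and *Selenop* (-0.54 and -0.58) were under 2-fold. Of 15 lipid-associated macrophage genes 13 were negative in both, with *Mmp12*, the macrophage elastase, from 345 to 147 CPM and from 503 to 185 CPM, and *Lgals3* and *Cd63* at -0.52 and -0.69 and at -0.59 and -0.52. *Fabp5*, a fatty acid carrier, had -1.36 and -0.79. Antigen presentation differed little, as none of 10 class II and none of 14 class I genes was past 2-fold in both libraries, and *Cd74* had -0.37 and -0.26. None of 19 interferon-stimulated and none of 24 chemokine and cytokine genes was past 2-fold in both, and *Cxcl9* (0.20 and 0.14) and *Il1b* (0.03 and 0.20) lay close to 0. None of 7 monocyte genes was past 2-fold in both, and *Ly6c2* of that list was detected in 2 and 5 cycling cells.

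Metabolic lists moved less than the cycle lists. Over all genes 38.4% were positive and 25.6% negative in both libraries. Oxidative phosphorylation had 17 of 20 genes positive in both (medians 0.32 and 0.19) with none past 2-fold. Purine and pyrimidine synthesis had 13 of 15 positive (medians 0.26 and 0.49), and *Impdh1* was the one past 2-fold lower, with 2 and 0 UMIs in cycling cells. One-carbon and serine genes had medians of 0.98 and 0.39, with *Psat1*, of serine synthesis, at 2.05 (1.28 to 2.79) and 1.52 (0.41 to 2.55) and the mitochondrial folate enzyme *Mthfd2* at 0.98 and 0.66. Glycolysis had 14 of 18 negative in both (medians -0.33 and -0.18). The pentose phosphate pathway had none of 11 past 2-fold and medians of 0.08 and -0.14.

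**Figure D4:**
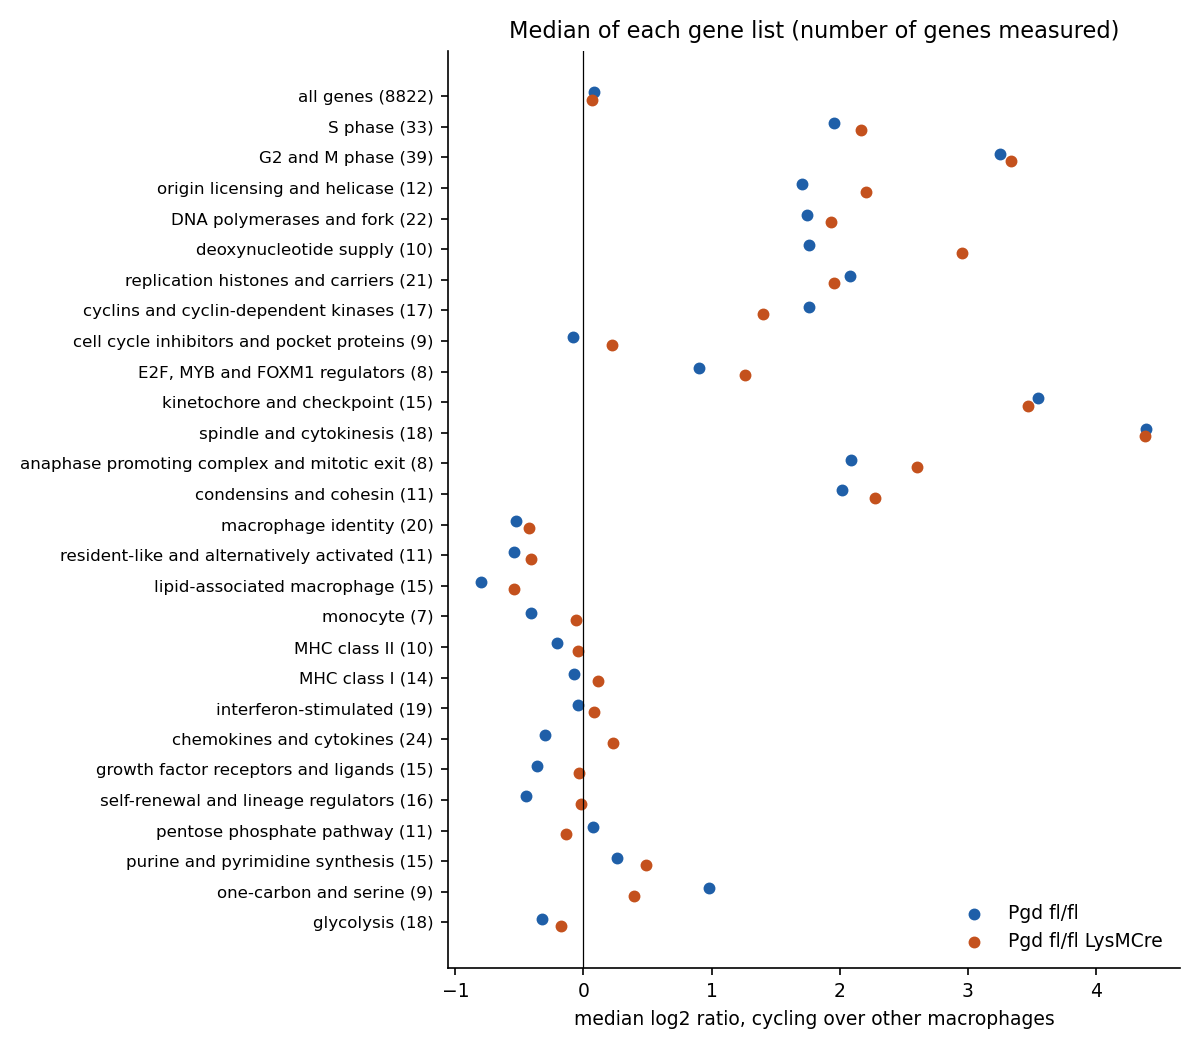
Median log2 ratio of cycling over other macrophages for the gene lists named on the vertical axis, 1 point per library, with the number of measured genes in brackets. Cycle lists reach 4.39 (spindle and cytokinesis), the inhibitors stand at -0.08 and 0.22, and the macrophage identity, resident-like and lipid-associated lists lie below the medians of all genes (0.08 and 0.06).

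The last question was whether the cycling macrophages differed by genotype. The targeted gene came first. *Pgd* had 104 UMIs (112 CPM) in the *Pgd* fl/fl and 19 UMIs (21.5 CPM) in the LysMCre cycling cells, a log2 ratio of -2.38 (-3.16 to -1.66), and was detected in 41 of 56 and 16 of 47 cells. Without cells that held lymphocyte UMIs, which left 9 and 7 cells, the ratio was -1.10. After thinning to 5000 UMIs it was detected in 43.4% and 17.4%, beside 13.3% and 13.02% of T cells thinned in the same way. In the other macrophages the ratio was -1.92 (-2.19 to -1.67), and in cycling T cells 0.13. A remaining signal of 19 UMIs was thus measured in the cycling cells of the library labelled 6PGDKO. *Lyz2*, the gene into which Cre is inserted, had 1964 and 12 UMIs in cycling macrophages and 20656 and 68 UMIs in other macrophages, so its level was of no use as a macrophage marker in the LysMCre library. Of the other pathway enzymes, *G6pdx* had 0.33 (-0.47 to 1.14), *Pgls* -0.04 (-0.39 to 0.31), *Tkt* -0.04 (-0.29 to 0.22), *Taldo1* 0.21 (-0.01 to 0.43) *Prps1* 0.12 (-0.63 to 0.87), *Prps2* -0.34 (-1.31 to 0.60) and *Rpe* 0.16 (-0.91 to 1.24), each with an interval that held 0. *H6pd*, *Rpia*, *Rbks*, *Shpk* and *G6pd2* had fewer than 30 UMIs over both libraries.

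The sums of 8 of the 13 cycle lists had genotype intervals that held 0, and the other 5 did not. The S phase list summed to 2207 and 2199 CPM, a log2 ratio of -0.0049 (-0.10 to 0.09), and the G2 and M list to 5599 and 5153 CPM, -0.12 (-0.18 to -0.06). Among the other lists that were clear of 0, the inhibitors and pocket proteins had 0.31 (0.22 to 0.40), against -0.19 (-0.23 to -0.16) in the other macrophages. Of its abundant members *Btg1* had 0.58, *Btg2* 0.37 and *Cdkn1a* 0.06, and the first pair turned negative without cells that held lymphocyte UMIs. The replication histones and carriers had 0.16 (0.11 to 0.21), the cyclins and kinases -0.18 (-0.31 to -0.05) and the spindle and cytokinesis genes -0.09 (-0.16 to -0.01). For the S phase and the G2 and M lists the medians over genes were -0.0012 and -0.10, beside 0.01 over all genes. The order of the G2 and M list depended on the limit of the rule, as it was 0.0057 (-0.06 to 0.07) in cells with at least 5 UMIs of *Mki67* and *Top2a*. *Birc5* (0.04), *Cenpf* (0.13) and *Pclaf* (0.14) were level. In cycling T cells the S phase list summed to 3596 and 3655 CPM, above the cycling macrophages of both libraries. These sets were not matched. Cycling T cells held medians of 10 and 13 UMIs of *Mki67* and *Top2a* against 8 and 6 in cycling macrophages. Their median depths were 11782 and 13195 UMIs against 15465 and 17491.

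Among all genes, 170 of 6164 with at least 30 UMIs over both libraries were at least 2-fold higher in the LysMCre cycling macrophages (2.76%) and 92 at least 2-fold lower (1.49%). For the same genes in the other macrophages (5926745 and 5715104 UMIs in all) the counts were 27 (0.438%) and 39 (0.633%). The cycling cells held 932718 and 884526 UMIs in all, which leaves a wider counting error. The counts of the 2 cell groups therefore do not show a larger genotype difference in cycling cells. Of the 13 cycle lists 6 had none past 2-fold either way. The exceptions by name were *Chaf1b* (-1.47), *Cdk6* (-1.48), *Cdkn2c* (-1.23) and *Fzr1* (-1.13) on the lower side. On the higher side they were the histones *Hist1h2ab* (1.41), *Hist1h2ac* (1.61) and *Hist2h2bb* (1.02), and *Ccnd3* (1.01), *Wee1* (1.08) and *Cenpn* (1.08), and the intervals of *Hist2h2bb*, *Ccnd3* and *Cenpn* held 0. *Cdk6*, with 53 and 18 UMIs, had -0.03 (-0.28 to 0.23) in the other macrophages. Its ratio in the cycling cells turned to 0.16 without cells that held lymphocyte UMIs, but only 9 and 7 cells were left there.

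Many of these genes rested on few cells. For 95 of the 170 higher genes (55.9%) and 29 of the 92 lower genes (31.5%), the 5 highest cells held more than 50% of the UMIs of the library with more. *S100a9* had 83 UMIs in 3 LysMCre cells against 1 UMI, *Ly6c2* had 65 of 72 UMIs in 1 LysMCre cell, and *Slpi* was noted above. Named genes were therefore limited to those with fewer than 50% of UMIs in 5 cells in each library with 10 or more UMIs, ordered by how far the interval lay from 0.

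On the higher side, *Lgals1*, which codes for galectin-1, had 155 and 386 UMIs (log2 ratio 1.39, 1.12 to 1.67) and was the one of 12 past 2-fold also in the other macrophages (1.01). *Gng12*, a G protein subunit, had 4 and 29 UMIs (2.93, 1.42 to 4.90), *Gsr*, glutathione reductase, 16 and 47 UMIs (1.63, 0.79 to 2.55), and *Ahr*, the aryl hydrocarbon receptor, 25 and 65 UMIs (1.46, 0.77 to 2.18). Their ratios in the other macrophages were smaller, at 0.96, 0.99 and 0.43. The chemokine *Ccl4* had 1779 and 3149 CPM (0.82, 0.74 to 0.91) against 0.25 in the other macrophages. *Csf2rb*, the shared receptor chain for GM-CSF, IL-3 and IL-5, had 143 and 274 CPM (0.94, 0.63 to 1.26) in 46 of 56 and 42 of 47 cells, with 0.06 (-0.05 to 0.16) in the other macrophages. *Abraxas2* (1.75) and *Zfp787* (1.71) completed the set with *Hspa1a*, *Hspa1b*, *Jun* and *Hist1h2ae*, which had the opposite sign in the other macrophages. Without cells that held lymphocyte UMIs *Hspa1b* turned to -0.35. The heat shock genes *Hspa1a* and *Hspa1b* and the immediate early gene *Jun* were 1928, 1053 and 1536 CPM in other and 922, 485 and 756 CPM in cycling macrophages of the *Pgd* fl/fl library, and 1703, 867 and 1305 CPM in the LysMCre cycling cells.

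On the lower side, after *Pgd*, stood *Zfp691* (41 and 8 UMIs, -2.28), the origin recognition gene *Orc4* (27 and 5 UMIs, -2.36), the gamma-tubulin complex gene *Mzt2* (57 and 18 UMIs, -1.59), *Meis3* (-1.97), *Slamf6* (-1.88) and *Cdk6*, whose direction turned as given above. The more abundant *Zmynd15* (677 and 371 CPM, -0.87, -1.06 to -0.67), *Tmem119* (167 and 82.5 CPM, -1.02, -1.44 to -0.61), *Lat2* (181 and 91.6 CPM, -0.98) and *Klra2* (-1.24) had the same sign in the other macrophages with smaller sizes (-0.50, -0.58, -0.28 and -0.23). *Aldh3b1* had 29 and 8 UMIs (-1.78). Of the 12 lower genes 11 were negative in the other macrophages and *Orc4* had 0.34 (-0.02 to 0.70). Over all genes other than the rule genes 2637 of 6159 were negative there. The 11 include the targeted gene *Pgd* and also *Cdk6*, whose ratio there was -0.03 (-0.28 to 0.23).

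**Figure D5:**
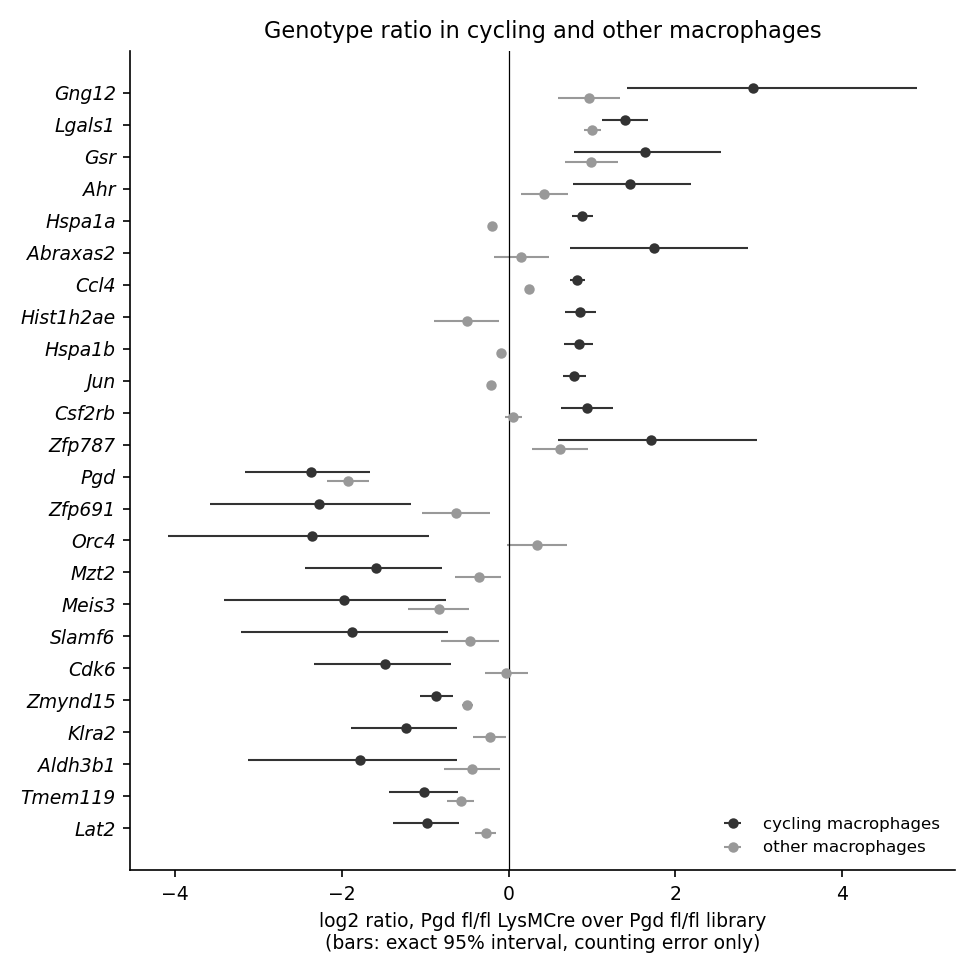
Log2 ratio of the *Pgd* fl/fl LysMCre over the *Pgd* fl/fl library (horizontal axis) for the 24 named genes, in cycling macrophages (dark) and other macrophages (grey), with bars for the exact 95% interval of counting error. *Pgd* is low in both cell groups (-2.38 and -1.92), *Lgals1* high in both (1.39 and 1.01), and *Hspa1a*, *Hspa1b*, *Jun* and *Hist1h2ae* have opposite signs.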

How the data were processed

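Leukocytes sorted from tumors were profiled by droplet single-cell RNA sequencing, with 1 deposited set of counts per genotype. The study's methods describe feature barcodes on the cells, sorted cells of both genotypes as pooled, and a library in the singular. Whether the sets of counts were divided by their oligos is not stated there. The study's methods describe live CD45+ cells, while 1 sentence of the labels names live CD11b+ cells, and cells with Cd3 transcripts are present in both libraries. The authors deposited raw UMI counts of 32285 genes per barcode, with counts of 12 multiplexing oligos, from Cell Ranger 6.1.2 on mm10 per the labels. Seurat is named there too, without a version, and no filter of the study had been applied to these counts. The oligo counts were used only to count cells with a second oligo, which does not settle whether a barcode was mixed. No doublet caller was run, and the libraries shared 0 barcodes. If the sets were divided by oligo, the 0 shared barcodes and the lead of the own oligo in every kept cell would follow from that step.

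UMIs were summed over cells and divided by the summed total (CPM) with Python 3.11.15, numpy 2.4.6, scipy 1.17.1 and pandas 2.3.3, and figures were drawn with matplotlib 3.10.9. Kept cells held 26959415 UMIs in the *Pgd* fl/fl and 28447905 in the *Pgd* fl/fl LysMCre library, and the cycling macrophages 932718 and 884526 (3460 to 38915 and 4173 to 38396 per cell). Log2 ratios carry exact conditional intervals and shares exact Clopper-Pearson intervals, at 95%. A gene counted as past 2-fold with at least 30 UMIs over the groups compared. The ratio was run on counts simulated as independent molecules, which is what its interval assumes. That run cannot show how the interval behaves where few cells hold most UMIs.

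Cells and gene lists were chosen with earlier results of these data known. The text names the genes of the rule and markers, the 3 members of each cycle list with most UMIs and its regulators with at least 30 UMIs, the 2 most counted members of other lists and those past 2-fold, the 12 genes in no list on each side with the largest smaller change, and the 12 on each side whose genotype interval lay farthest from 0. It also names all pentose phosphate pathway genes and *Lyz2*. Not every gene under the rule is printed, and some results are not reported here. *Ly6c2*, *Adgre1*, *Cd207* and the cycle genes past 2-fold by genotype were named after their values were seen. T cells were cells with at least 3 Cd3 UMIs and neutrophils those with at least 50 UMIs of *S100a8* and *S100a9*. Alternatives changed the limits of the rule, the comparison cells, the scaling, the gene minimum and the cells kept.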

Additional observations from a re-analysis of the deposited data

Results flagged for a closer look

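For 14 named genes the genotype ratio had opposite signs in cycling and other macrophages, with both counting intervals clear of 0. The difference was not tested, as each genotype is 1 library. The naming rule gave 218 genes, some of them chosen by their genotype ratio in these same cycling cells. No share over all measured genes was counted, so the 14 do not show a genotype difference particular to cycling cells. The log2 ratio in cycling minus that in other macrophages was 1.09 for *Hspa1a*, 0.93 for *Hspa1b*, 1.66 for *Dnajb1*, 0.99 for *Jun* and 0.80 for *Atf3*, which are heat shock and immediate early genes. It was 0.68 for *Btg1* and 0.74 for *Btg2*, antiproliferative genes, 1.36 for the histone *Hist1h2ae* and 0.50 for *Apoe*. *Ly6a* went the other way with -0.86, at 274 and 188 UMIs in cycling cells.

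The largest differences rested on a handful of cells. They were 9.13 for *S100a9* (1 and 83 UMIs in cycling cells, held by 1 and 3 cells), 5.33 for *S100a8* (3 and 35 UMIs, held by 3 and 2 cells), 3.99 for *Ccr7* (4 and 41 UMIs) and 2.53 for *Ccl22* (10 and 36 UMIs, held by 4 and 3 cells).

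In the oligo counts, which enter no comparison, a second oligo exceeded 10% in 4 *Pgd* fl/fl and 1 *Pgd* fl/fl LysMCre cycling macrophages (7.14% and 2.13%). The shares were 5.80% and 1.94% of other macrophages and 52.3% and 27.9% of kept cells.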

How the results depend on the processing

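No test was made, so directions and sizes are compared. No paired analysis was possible because each genotype has 1 library. Leaving out cells with any UMI of the T, B and NK cell lists kept 9 and 7 cycling macrophages, too few for most genes. A single such UMI removed a cell, so that 106 of 573 and 128 of 512 C1q macrophages were left.

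The share of cycling macrophages became 6.81% and 5.86% with at least 5 UMIs of *Mki67* and *Top2a*, and 16.5% and 17.3% in thinned cells at 1 UMI. Without lymphocyte UMIs it was 9 of 106 in the *Pgd* fl/fl and 7 of 128 (5.47%) in the *Pgd* fl/fl LysMCre library. Genes higher in cycling than in other macrophages numbered 38 without lymphocyte UMIs and 112 with a minimum of 100 UMIs. Genes lower numbered 109 with at least 5 UMIs, 42 against macrophages without *Mki67* or *Top2a* UMIs, and 17 with a minimum of 100 UMIs. Against macrophages of matched depth they were 263 higher and 49 lower. By genotype, higher genes numbered 61 without lymphocyte UMIs, 62 after thinning and 28 with 100 UMIs, and lower genes 157 with at least 5 UMIs and 17 with 100 UMIs. The *Pgd* ratio was -1.10 without lymphocyte UMIs and -3.97 after thinning. The thinned ratio came from another random draw than the thinned detection shares, where 23 of 53 and 8 of 46 cells held a *Pgd* UMI. It rests on few UMIs of 1 draw, so its size is not taken as a stronger loss. The S phase ratio was -0.13 after thinning, -0.13 without the deepest 10% of cycling cells and -0.14 with each cell weighted equally, an alternative chosen after seeing the data. The G2 and M ratio was 0.0057 with at least 5 UMIs, 0.28 without lymphocyte UMIs and -0.18 after thinning.

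Sign changes were counted only where the main interval was clear of 0. Of 487 values for single genes 10 changed sign in this way, 9 of them without lymphocyte UMIs. There *Mgp* (1.20), *Prelid2* (0.84), *Ifitm1* (0.25) and *Pdcd4* (0.048) turned positive in the *Pgd* fl/fl library, and by genotype *Hspa1b* was -0.35, *Cdk6* 0.16, *Btg1* -1.05, *Btg2* -0.92 and *Atf3* -0.13. *Btg2* was -0.0070 with each cell weighted equally. The causes were not tested. Median of ratios scaling moved the genotype ratios by 0.01.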
